A study of Mus musculus with 24 samples.

Results

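Accessibility was described at Trp53, the gene of the transcription factor p53, and at 9 genes that p53 is known to activate, which were Mdm2, Cdkn1a, Ccng1, Bax, Bbc3, Zmat3, Trp53inp1, Sesn1 and Sesn2. All consensus peaks, here called intervals, whose nearest transcription start site (TSS) belonged to one of these 10 genes in the authors' annotation were taken. That gave 59 of 145143 intervals. Of these, 10 were promoter intervals, 1 for each gene, which lay within 1000 bp of the TSS or carried the promoter annotation. The other 49 were distal. Sesn1 had 11 intervals, Zmat3 had 10, Bbc3 had 9, Trp53, Mdm2 and Ccng1 had 6 each, Trp53inp1 had 5, Sesn2 had 3, Bax had 2 and Cdkn1a had 1.

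The intervals were measured by ATAC-seq, an assay with a transposase that cuts and tags accessible DNA, in mouse embryonic stem cells of 4 lines. The knockout (KO) Firre line had the Firre KO genotype, without the gene of the long noncoding RNA Firre, and held a Firre transgene that doxycycline induces. The KO control was its matched control of the same Firre KO genotype. The wild type (WT) Firre line held the inducible transgene on the wild type background, and the WT control was the matched control of that line. Control lines received doxycycline too, at 1 ng/µL as in the Firre lines, in medium with LIF, the MEK inhibitor PD0325901 and the GSK3 inhibitor CHIR99021. Each line was sampled once every 30 min from 0 to 150 min. Counts were analysed for 6 libraries of the KO Firre line, 6 of the KO control, 5 of the WT Firre line (its library of 60 min was not analysed here) and 6 of the WT control. The times of a line served as its replicates. No label names separate cultures or clones, so p-values here cover the spread of these libraries, which may be technical, and genotype, clone and culture cannot be told apart.

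The p53 protein is kept low by Mdm2, a ubiquitin ligase that p53 itself induces, and it accumulates when DNA damage or other stress blocks that ligase. It then binds response elements made of a pair of short repeats and activates genes of cell cycle arrest, apoptosis, DNA repair and metabolism. In mouse embryonic stem cells p53 is also known to repress Nanog after DNA damage and so to favour differentiation. ATAC-seq reports how open the DNA at such genes is, not how much p53 is present or how much the genes are transcribed.

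The libraries held 5725518 to 14977148 counts in intervals. The 19 intervals of the deleted gene Firre outside its exonic interval together had 5.03 to 6.47 CPM (counts scaled to a common library size) in the KO Firre line, 2.04 to 4.85 CPM in the KO control, 94.8 to 119.0 CPM in the WT Firre line and 80.7 to 98.7 CPM in the WT control, which sets every KO library apart from every WT library and does not check the transgene. The exonic Firre interval had 12.7 to 22.5 CPM in the KO Firre line, 4.18 to 9.6 CPM in the KO control, 13 to 36.7 CPM in the WT Firre line and 1.35 to 2.72 CPM in the WT control. At that interval each Firre line lay above its control, but the KO control also lay above the WT control, against what its label leads to if the deletion covers that interval, which the labels do not state. Of 10 pluripotency marker genes, 9 had a promoter interval (Utf1 had none), with a median of 16.1 CPM per kb, against 5.84 for 6 of 8 fibroblast markers (Col1a2 and Col3a1 had none) and 7.08 for 6 of 8 differentiation markers (Sox17 and Cdx2 had none). The share of counts that fell in promoter intervals was 41.8% ± 0.55 in the KO Firre line, 42.1% ± 0.96 in the KO control, 40.8% ± 2.06 in the WT Firre line and 39.0% ± 0.59 in the WT control (SD, n = 6, 6, 5 and 6). The KO control libraries of 30 and 90 min had the highest shares in their line, 43.1% each.

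The upstream sequences of Cdkn1a and Ccng1 are shown because they carry the closest matches to the consensus p53 response element among these genes, and because both promoters passed a test between lines. RefSeq (GRCm38.p6) gave 12 promoter windows of 300 bases for 8 of the genes. Trp53inp1 and Zmat3 had none. Each window was searched on both strands for the 20-base consensus p53 response element with no spacer between its repeats, and capitals mark the best match. The 200 bases before the upstream TSS of Cdkn1a lie on the + strand at chr17:29090779-29090978, and those before the Ccng1 TSS lie on the − strand at chr11:40755287-40755486.
Cdkn1a: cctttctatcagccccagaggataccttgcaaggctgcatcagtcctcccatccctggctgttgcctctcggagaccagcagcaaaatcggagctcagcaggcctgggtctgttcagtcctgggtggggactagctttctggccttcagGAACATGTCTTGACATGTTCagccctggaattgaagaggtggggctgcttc
Ccng1: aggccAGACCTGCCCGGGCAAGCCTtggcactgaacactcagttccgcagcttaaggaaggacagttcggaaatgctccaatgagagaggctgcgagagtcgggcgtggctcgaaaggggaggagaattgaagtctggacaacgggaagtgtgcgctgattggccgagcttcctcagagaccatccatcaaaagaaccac

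The Cdkn1a match has 1 mismatch and lies at chr17:29090928-29090947, and the Ccng1 match has 1 mismatch and lies at chr11:40755462-40755481. Among all 32851 promoter windows of the table, 29 (0.0883%) held a match with at most 1 mismatch. In human cells the site upstream of CDKN1A is the textbook p53 response element. Bax had a match with 1 mismatch when a spacer of 1 base was allowed, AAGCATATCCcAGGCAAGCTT on the − strand at chr7:45467090-45467110, with the spacer in lower case. With a spacer of up to 13 bases, 1.09% of all windows held a match this close. Trp53 (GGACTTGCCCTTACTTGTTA, chr11:69580284-69580303, + strand) and Bbc3 (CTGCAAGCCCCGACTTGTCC, chr7:16309486-16309505, + strand) had their best matches without a spacer at 3 mismatches, a distance reached by 6.29% of all windows. Sesn1 also had a match with 3 mismatches without a spacer, at its downstream TSS, and 1 with 2 mismatches and a spacer of 3 bases. With a spacer of up to 13 bases, 10.1% of all windows held a match with at most 2 mismatches. Cdkn1a had a match with 0 mismatches and a spacer of 12 bases, where 0.0731% of all windows held 1. Each of these matches lay inside the interval that covers its TSS. A match is a description of letters and says nothing of binding.

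Several names need care. The single interval named Cdkn1a (chr17:29090826-29091236, 411 bp) covers the upstream RefSeq TSS of the gene at 29090979, whereas its downstream TSS at 29093769 lies in a wider interval (chr17:29093355-29095888) that the authors' file names 1700023B13Rik. Sesn1 likewise has a named promoter interval (chr10:41886982-41887873) at 1 RefSeq TSS, while its upstream TSS at 41810574 lies in an interval (chr10:41809361-41810788) named Cep57l1. The Trp53 promoter interval (chr11:69578996-69582654) carries the promoter annotation of Wrap53, the neighbour that starts on the other strand, and the Sesn2 promoter interval (chr4:132509407-132510746) carries that of Gm12981. Of the 49 distal intervals, 24 lay in the body or at the end of their own gene, 14 were intergenic and 11 lay in another gene, among them Armc2 for Sesn1, Sae1 for Bbc3 and Dhdh for Bax. The intervals named 1700023B13Rik and Cep57l1 are given beside the 59 and not counted among them.

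Promoters of these genes were open in all 4 lines. Per length, the 10 promoter intervals had a median of 18.6 CPM per kb over all libraries, against 8.77 for all 22024 tested promoter intervals. The level ran from 28.9 CPM per kb at Sesn2 and 26.0 at Sesn1 to 9.95 at Zmat3. Between them lay Ccng1 at 21.4, Trp53 at 20.6, Bbc3 at 19.5, Cdkn1a at 17.7, Mdm2 at 17.2, Trp53inp1 at 16.3 and Bax at 15.03. Over the 23 libraries the coefficient of variation (CV) of a promoter ran from 8.6% at Bax to 20.2% at Cdkn1a, so most neighbours in that order differ by less than the spread between libraries. Distal intervals had a median of 5.12 CPM per kb, against 4.74 for all 107491 tested distal intervals, and CVs of 10.5% to 59.6%.

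Bbc3, which encodes the BH3-only protein Puma, and Sesn2 stood out for open distal intervals. The interval at -11345 bp from the Bbc3 TSS had 27.4 CPM per kb (12.9 CPM over 472 bp), a higher level per length than the promoter itself. In CPM the Bbc3 promoter was the higher, with 33.4 to 52.2 CPM per library over 2151 bp. The Bbc3 intervals at -8566 and 5680 bp had 20.6 and 20.2 CPM per kb. The distal Sesn2 intervals at -5304 and -3415 bp had 17.3 and 16.6 CPM per kb. Per length, Zmat3 also had a distal interval above its promoter. By line, the interval at 5155 bp had 13.9 to 17.1 CPM per kb, and the Zmat3 promoter had 9.57 to 10.15. In CPM the Zmat3 promoter was the higher, at 23.4 to 24.8 by line against 7.86 to 9.68. At the other end, the Ccng1 interval at -22106 bp had 2.11 CPM per kb. Of the 49 distal intervals, 5 had too few counts to be tested, so 54 of the 59 entered the tests.

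**Figure D1:**
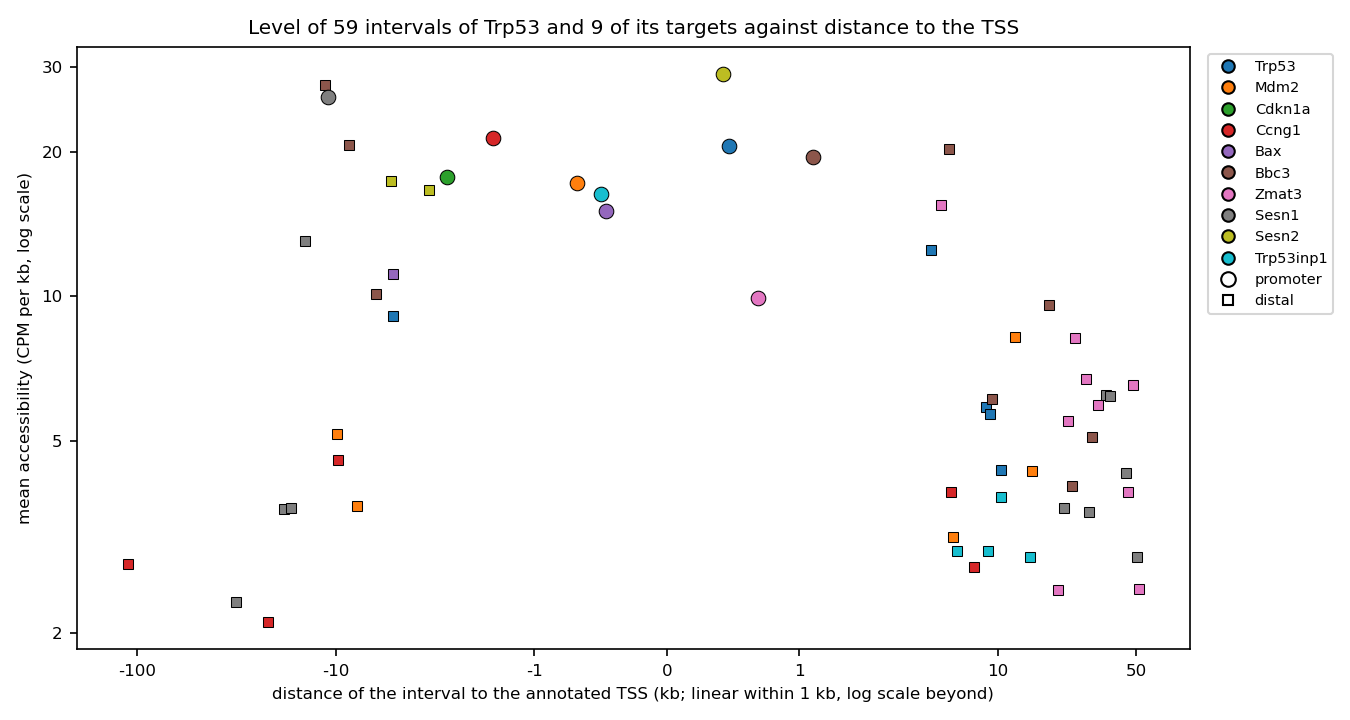
Mean accessibility over 23 libraries (CPM per kb, log scale) of 59 intervals against distance to the annotated TSS in kb. Promoter intervals (circles) lie between 9.95 and 28.9 CPM per kb, and among the distal intervals (squares) the highest is the Bbc3 interval at -11345 bp.

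Cdkn1a, which encodes the cyclin-dependent kinase inhibitor p21, was higher in the KO Firre line than in the KO control, and no other interval of the 10 genes passed that test. The comparison pools all 6 times of each line, 0 min included, so it does not isolate induction of the transgene. At 0 min the Cdkn1a interval already had 8.20 CPM in the KO Firre line and 6.08 CPM in the KO control. In the KO Firre line the upstream Cdkn1a interval had 7.005 CPM at lowest, a median of 8.705 and 9.52 at highest. In the KO control it had 4.85 CPM at lowest, a median of 6.21 and 9.07 at highest. The libraries of both lines overlapped through the KO control library of 30 min, yet at each of the 6 times the KO Firre library was the higher. The means were 8.58 ± 0.92 CPM in the KO Firre line and 6.42 ± 1.49 CPM in the KO control (SD, n = 6 each), a log2 difference of 0.45 ± 0.12 (SE; edgeR adjusted p = 0.0476), or 1.36-fold. Thus 1 of 54 tested intervals was called, where 0.913% of all 129515 tested intervals were. The call is at the margin: of the fits that left out 1 library, 4 of 23 kept it (those without the KO Firre line at 0 or at 120 min, the KO control at 30 min or the WT Firre line at 150 min), with differences of 0.33 to 0.54, and DESeq2 and limma-voom did not call it.

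On the wild type background the same interval had 7.305, 5.615, 8.40, 6.78 and 4.78 CPM at 0, 30, 90, 120 and 150 min in the WT Firre line. In the WT control it had 5.30 CPM at lowest, a median of 7.46 and 8.74 at highest. The libraries overlapped, and the log2 difference was -0.14 ± 0.13, with an approximate 95% interval of -0.39 to 0.12 (edgeR adjusted p = 0.871). The difference between the transgenic contrasts was 0.58 ± 0.18 and did not pass (edgeR adjusted p = 0.143). The data therefore do not show that the line difference at Cdkn1a varied between the 2 backgrounds. At the downstream Cdkn1a TSS, in the interval named 1700023B13Rik, the level was 49.1 ± 2.198 CPM in the KO Firre line and 44.55 ± 5.72 CPM in the KO control, and that difference did not pass (edgeR adjusted p = 0.475).

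**Figure D2:**
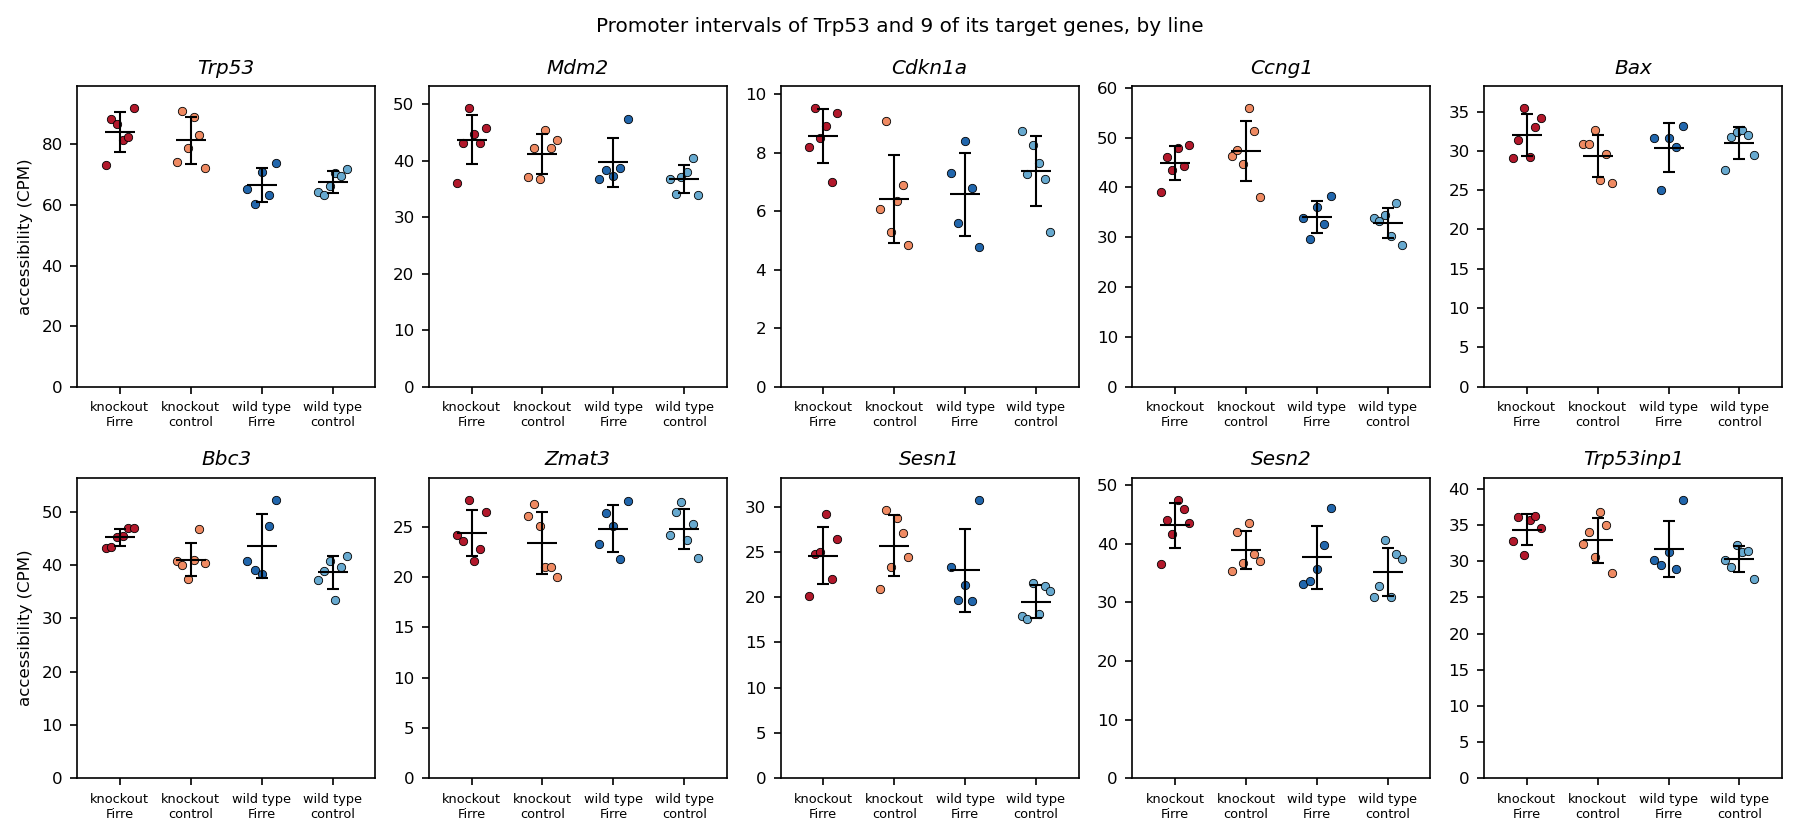
Accessibility (CPM, linear axis from 0) of the promoter intervals of 10 genes in each library, by line; bars are the mean ± SD over 6, 6, 5 and 6 libraries. The Ccng1 and Trp53 libraries of the KO control lie above those of the WT control (the Trp53 difference turned to -0.09 with loess scaling), and these 2 lines overlap at the remaining promoters.

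The other promoters had log2 differences of -0.07 to 0.16 between the KO Firre line and the KO control. The log2 differences of the 10 promoters had a median of 0.0804, against -0.0099 for all tested promoter intervals. Sesn2, which encodes a stress sensor that restrains mTORC1, came next after Cdkn1a, with 43.2 ± 3.83 CPM in the KO Firre line and 38.9 ± 3.23 CPM in the KO control. Its log2 difference of 0.16 ± 0.08 did not pass (edgeR adjusted p = 0.417). Among distal intervals the smallest adjusted p was 0.188, at the Bbc3 interval of 9325 bp, where the log2 difference was -0.50 ± 0.18. Of the 54 intervals, 4 had an unadjusted p under 0.05, where 12.26% of all tested intervals had.

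The KO control stood above the WT control at the promoters of Ccng1, Sesn1 and Trp53 (with loess scaling Trp53 turned, to -0.09), and below it at a distal interval of Zmat3. This comparison shares the KO control with the one before, and its WT control with the next, so a high or low library of a shared line moves both. Of 54 intervals, 3 were higher, where 5.5% of all tested intervals were, and 1 was lower, where 2.47% were. Among the 10 promoters, 3 were higher, where 16.4% of all promoter intervals were, and none was lower, where 1.38% were, with 3 promoters at an unadjusted p under 0.05, where 34.96% of all promoter intervals had. DESeq2 called 3 and limma-voom 4 of the 54. Over all intervals the count is near the background. Scaled by total counts, the median of all intervals in this contrast was -0.12, and 3855 of them were higher and 7224 lower, against 7128 and 3196 here. The 10 promoters had a median log2 difference of 0.123 and all promoters one of 0.0909.

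Ccng1 encodes cyclin G1, which takes part in feedback on p53 through Mdm2. Its promoter interval (chr11:40754628-40756499) had 38.0 CPM at lowest, a median of 46.9 and 55.9 at highest in the KO control. In the WT control it had 28.5 CPM at lowest, a median of 33.6 and 36.9 at highest. No library of the KO control was as low as the highest of the WT control. The log2 difference was 0.52 ± 0.09 (edgeR adjusted p = 8.13e-06), or 1.43-fold. The KO Firre line, at 44.9 ± 3.43 CPM, was also on the knockout side, and the WT Firre line, at 34.1 ± 3.29 CPM, was on the wild type side.

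Sesn1 encodes another sestrin. Its promoter interval had 20.9 CPM at lowest, a median of 25.8 and 29.6 at highest in the KO control. In the WT control it had 17.6 CPM at lowest, a median of 19.4 and 21.5 at highest. The lines overlapped through the KO control library of 0 min, which was the lowest of its line. The log2 difference was 0.39 ± 0.09 (edgeR adjusted p = 0.00318). The interval over its upstream TSS, named Cep57l1, was higher by 0.43 ± 0.09 (edgeR adjusted p = 0.000555), with 61.4 ± 11.4 CPM in the KO control and 45.1 ± 3.83 CPM in the WT control. The call at Cep57l1 ended with loess scaling (0.129) and without the KO control at 30 and 90 min (0.266). With the promoter share as a covariate it ended too (-0.093).

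The Trp53 promoter had 72.2 CPM at lowest, a median of 81.0 and 91.1 at highest in the KO control. In the WT control it had 63.4 CPM at lowest, a median of 67.9 and 72.0 at highest. The groups did not overlap, although the KO control library of 150 min and the highest WT control library nearly met. The log2 difference was 0.26 ± 0.08 (edgeR adjusted p = 0.0308), or 1.20-fold, while intensity-dependent (loess) scaling turned it to -0.09. With total counts (0.165) or without the 0 min libraries (0.272) the Trp53 difference did not pass. The KO Firre line had 84.0 ± 6.57 CPM and the WT Firre line had 66.7 ± 5.61 CPM. The call ended in 10 of the 23 fits without 1 library, which were those without the KO control at 0, 30, 90 or 120 min and those without any 1 of the 6 WT control libraries, with differences of 0.22 to 0.32 over all 23.

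The Zmat3 interval that was lower lies in intron 2 of 6 (chr3:32345531-32346305), 20096 bp from the TSS of this gene, which encodes an RNA-binding zinc finger protein. It had 0.253 CPM at lowest, a median of 1.34 and 1.98 at highest in the KO control, and 1.71 CPM at lowest, a median of 2.67 and 3.58 at highest in the WT control. The lines overlapped, and the counts were small, with 2 to 20 per library in the KO control and 12 to 25 in the WT control. The log2 difference was -1.09 ± 0.25 (edgeR adjusted p = 0.00134), and DESeq2 gave no adjusted p for it. Its level was 1.67 ± 0.31 CPM in the KO Firre line and 2.12 ± 0.39 CPM in the WT Firre line (SD, n = 6 and 5). The Zmat3 promoter was not called, with 23.4 ± 3.08 CPM in the KO control and 24.8 ± 1.98 CPM in the WT control (log2 difference -0.10 ± 0.09; edgeR adjusted p = 0.535), although with loess scaling its difference was -0.263 and passed.

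These 4 differences moved with 2 other measures. The share of counts in promoter intervals was higher in every KO control library than in any WT control library, and with that share as a covariate 0 of the 4 passed (Ccng1 0.26, Sesn1 -0.035, Trp53 0.10 and Zmat3 -0.80 on the log2 scale). When the 30 and 90 min libraries of the KO control were left out, 1 of the 4 passed, Ccng1 at 0.45, while Sesn1 had 0.28, Trp53 had 0.18 and Zmat3 had -0.88. Trp53 and Ccng1 also lie on chromosome 11, where 714 of 1664 promoter intervals were higher in the KO control, with a median log2 difference of 0.26 over them all. The part of the promoter share or of the chromosome in these differences was not tested further, and line and clone cannot be told apart.

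**Figure D3:**
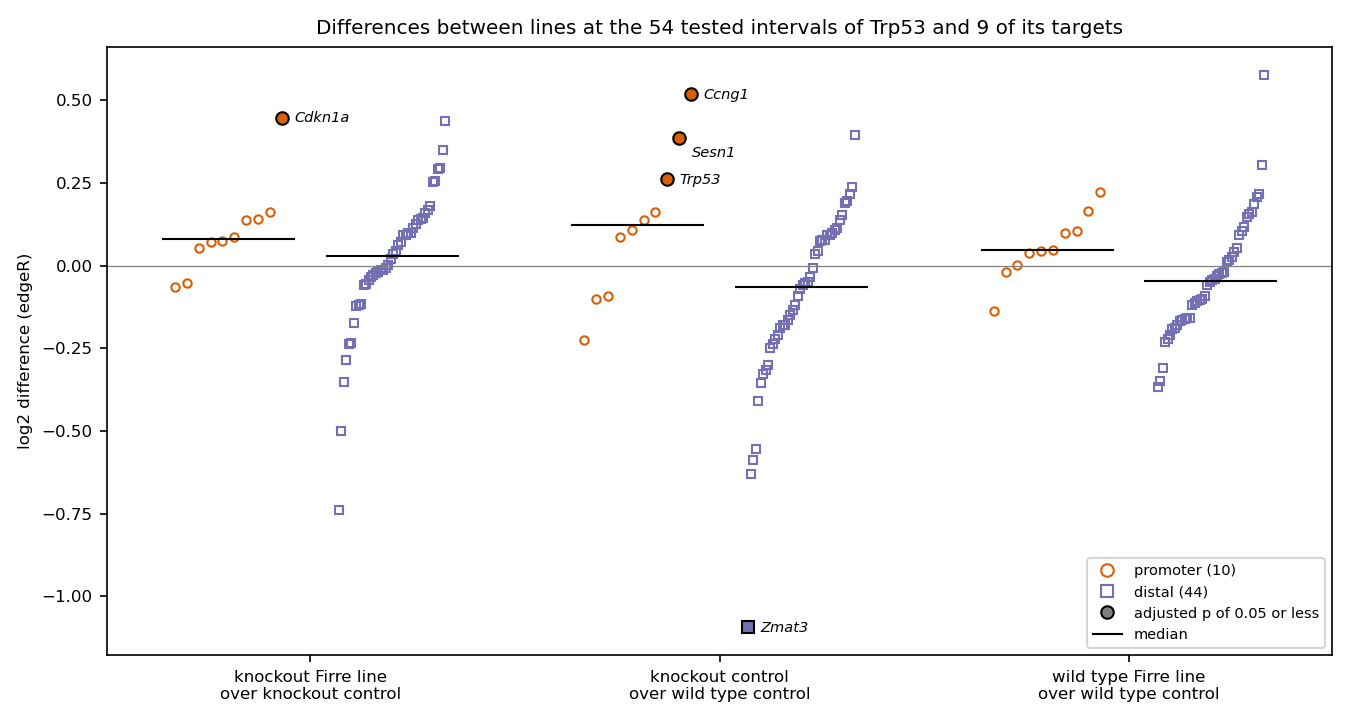
Log2 differences between lines (edgeR) at the 54 tested intervals, promoters as circles and distal intervals as squares, each class sorted by value, with filled symbols for an adjusted p of 0.05 or less and a line at the median. Cdkn1a (0.45) is filled in the first contrast, Ccng1, Sesn1, Trp53 (-0.09 with loess scaling) and the distal Zmat3 interval (-1.09) in the second, and none in the last.

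On the wild type background no interval of the 10 genes was called between the WT Firre line and the WT control with TMM scaling, while with loess scaling the Trp53 promoter was (-0.216, against -0.02 with TMM). With TMM, edgeR called 0 of 54, where 0.0818% of all tested intervals were called, and DESeq2 and limma-voom called 0, while 3 had an unadjusted p under 0.05, where 7.55% of all intervals had. The closest were the Bbc3 interval at -11345 bp, with 14.2 ± 2.65 CPM in the WT Firre line and 11.4 ± 1.90 CPM in the WT control (log2 difference 0.305 ± 0.105; edgeR adjusted p = 0.413), and the Sesn1 promoter. Sesn1 had 23.4, 19.7, 21.4, 19.55 and 30.75 CPM at 0, 30, 90, 120 and 150 min in the WT Firre line, against the 17.6 to 21.5 CPM of the WT control. The library of 150 min alone was far above the others, and its promoter share, 44.3%, was the highest of all 23 libraries.

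The test of the difference between the transgenic contrasts passed for no interval with TMM scaling, and for the Trp53 promoter with loess scaling (0.292, against 0.072 with TMM). With TMM, edgeR called 0 of 54, where 0.266% of all tested intervals were called, DESeq2 and limma-voom called 0, and 6 had an unadjusted p under 0.05, where 10.57% of all intervals had. The smallest adjusted p, 0.101, belonged to a low Sesn1 interval in intron 11 of 16 of Armc2 (chr10:41933460-41933713). It had 1.09 ± 0.24 CPM in the KO Firre line and 1.87 ± 0.52 CPM in the KO control, and 2.09 ± 0.51 CPM in the WT Firre line and 1.38 ± 0.30 CPM in the WT control.

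The promoters of Mdm2, Bax, Bbc3, Zmat3, Trp53inp1 and Sesn2 passed no test between lines with TMM scaling. Mdm2 had 43.7 ± 4.34 CPM in the KO Firre line, 41.2 ± 3.55 in the KO control, 39.7 ± 4.33 in the WT Firre line and 36.7 ± 2.45 in the WT control. Bax, a pore-forming effector of apoptosis, had 32.0 ± 2.62, 29.3 ± 2.71, 30.4 ± 3.13 and 31.0 ± 2.03 CPM in the same order of lines, and with loess scaling its log2 difference between the KO control and the WT control was -0.293 and passed, against -0.09 with TMM. Bbc3 had 45.15 ± 1.66, 41.0 ± 3.09, 43.55 ± 6.00 and 38.6 ± 3.01 CPM. At each of these genes the libraries of a Firre line and of its control overlapped.

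Trp53inp1, which encodes a protein that promotes p53-dependent apoptosis and autophagy, had 34.4 ± 2.17 CPM in the KO Firre line, 32.9 ± 3.11 in the KO control, 31.7 ± 3.91 in the WT Firre line and 30.3 ± 1.75 in the WT control. Sesn2 had 37.7 ± 5.38 CPM in the WT Firre line and 35.2 ± 4.15 CPM in the WT control. Summed over the 10 promoters, the level was 384.9 ± 22.2, 367.6 ± 25.4, 338.1 ± 32.2 and 324.1 ± 13.8 CPM in the KO Firre line, the KO control, the WT Firre line and the WT control. Summed over the 49 distal intervals it was 243.1 ± 7.24, 238.1 ± 3.90, 241.6 ± 3.05 and 240.8 ± 7.15 CPM. The promoter sums of a Firre line and of its control overlapped, as did those of the KO control (334.8 to 394.2 CPM) and the WT control (311.5 to 341.9 CPM).

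The highest distal interval of each gene passed no test between lines here. For that of Trp53inp1, the KO control differed from the WT control with total counts (-0.501), with a minimum of 30 counts (-0.457), without the KO control at 120 min (-0.567) and without the WT control at 0 min (-0.525). That of Sesn2 had 31.3 CPM over all libraries and that of Bbc3 20.8 CPM. The others were lower, with 8.78 CPM at Zmat3 (5155 bp), 7.20 at Mdm2 (12240 bp, intron 5 of 9), 5.55 at Ccng1 (5818 bp), 5.30 at Trp53 (4607 bp, intron 1 of 10), 4.86 at Sesn1 (36697 bp), 4.39 at Trp53inp1 (10389 bp) and 3.30 at Bax (-5130 bp). Their log2 differences ran from -0.17 at Sesn1 to 0.13 at Bbc3 between the KO Firre line and the KO control, and from -0.41 at Trp53inp1 to 0.15 at Sesn2 between the KO control and the WT control.

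Over time after doxycycline, no interval of the 10 genes was called by edgeR, while DESeq2 called the Sesn2 promoter for a slope shared by all lines. The mean Firre response, which is the change from 0 min to the later times in the Firre lines beyond that in the control lines, gave 0 of 54 calls by edgeR, where 0% of all tested intervals were called, and 0 by DESeq2 and limma-voom, with 2 at an unadjusted p under 0.05, where 3.772% of all intervals had. For the 10 promoters the log2 responses ran from -0.12 to 0.17, with a median SE of 0.166. The Cdkn1a response was 0.10 ± 0.24, with an approximate 95% interval of -0.37 to 0.57, and that of Trp53 was 0.02 ± 0.16, with an interval of -0.30 to 0.34. At this precision a response within those bounds could not be told from none.

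The test over all times of the Firre response called 0 of 54, where 0.000772% of all tested intervals were called, with 0 by DESeq2 and limma-voom and 4 at an unadjusted p under 0.05, where 4.423% of all intervals had. The response of the control lines alone, which holds the drug, the medium and the time, called 0 of 54 by edgeR, DESeq2 and limma-voom, where 0% were called over all, with 3 at an unadjusted p under 0.05, where 5.263% of all intervals had. In the control lines the 10 promoters had a median log2 response of 0.044, and Cdkn1a had -0.14 ± 0.17.

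A linear drift shared by all lines called 0 of 54 by edgeR, where 0.271% of all tested intervals were called, and 0 by limma-voom. Of the 54, 10 (18.52%) had an unadjusted p under 0.05, where 9.94% of all intervals had. Among the 10 promoters 5 (50%) had one, where 19.34% of all promoter intervals had. DESeq2 called 1, the Sesn2 promoter, at 0.093 per hour, against 0.091 by edgeR, and without the KO control at 150 min edgeR called 3 intervals, among them that promoter (0.109) and the Zmat3 interval at 5155 bp (0.168). The smallest adjusted p was 0.0904, at the Bbc3 interval of -11345 bp, with a log2 slope of 0.145 ± 0.041 per hour. Cdkn1a had a slope of -0.10 ± 0.05 per hour (edgeR adjusted p = 0.494). In 3 of the 4 lines its library of 150 min was the lowest, whereas that of the KO Firre line, at 9.34 CPM, was among the highest of its line.

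**Figure D4:**
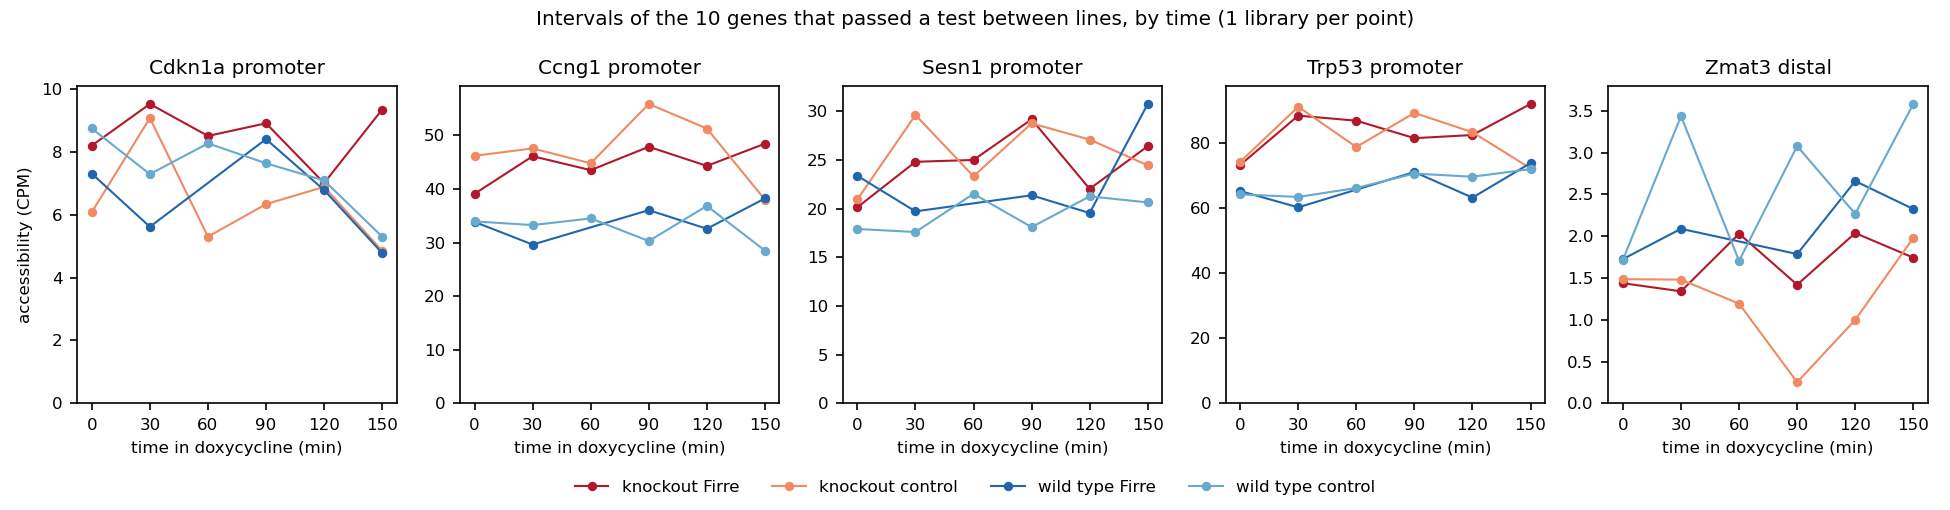
Accessibility (CPM, linear axis from 0) against time in doxycycline (min) for the intervals that passed a test between lines, 1 library per point; the WT Firre line has no point at 60 min and its line joins 30 and 90 min. The Cdkn1a library of the KO Firre line is above that of the KO control at each of 6 times, while in the Ccng1 panel both KO lines lie above both WT lines, except at 150 min, where the KO control (38.0 CPM) meets the WT Firre line (38.25 CPM).

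Other genes of the p53 pathway were read from a list of 50 genes, of which 47 were named in the authors' annotation and 43 had a tested promoter interval (53 intervals). In the KO control 13 of these were higher than in the WT control and 1 was lower, against the 16.4% higher and 1.38% lower among all promoter intervals. Upstream, the kinase genes Atm (0.34) and Chek1 (0.38) and Cdkn2a (0.34), whose Arf product inhibits Mdm2, were higher on the log2 scale. So was an interval named for the p53-dampening phosphatase gene Ppm1d (0.50), which lies 40865 bp from the annotated TSS of that gene. Among arrest genes, E2f7 (0.37), Sfn (0.40), Ccng2 (0.34) and Gadd45a (0.28) were higher. Apaf1 (0.435), the apoptosome scaffold, Bcl2l1 (0.28), an inhibitor of apoptosis, and the repair and metabolism genes Ddb2 (0.32), Fdxr (0.35) and Tigar (0.43) were higher as well. Loess scaling turned Bcl2l1 to -0.01 and ended its call. The calls at Atm, Chek1, Cdkn2a, E2f7, Ccng2, Gadd45a, Apaf1, Ddb2 and Fdxr also ended with it (0.011 at Gadd45a to 0.157 at Chek1).

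The interval named Ppm1d (chr11:85352421-85353638) entered the list through its promoter annotation, not through its distance of 40865 bp. At that distance it may be the promoter of another gene. The intervals named Ppm1d and Fdxr lie on chromosome 11, where 714 of 1664 promoter intervals were higher in the KO control. The interval named Ppm1d had 47.7 ± 7.41 CPM in the KO control and 33.4 ± 1.41 CPM in the WT control. Usp7, the gene of a deubiquitinase of p53 and Mdm2, had a log2 difference of -0.915 at a low interval, with 1.00 ± 0.46 CPM in the KO control and 1.91 ± 0.63 CPM in the WT control. The Usp7 call ended with loess scaling (-0.752). With the promoter share as a covariate 0 of these 14 passed, and 2 passed when the 30 and 90 min libraries of the KO control were left out. The 53 intervals had a median log2 difference of 0.129, against 0.0909 for all promoter intervals. Of them, 26 (49.06%) had an unadjusted p under 0.05 in this contrast, where 34.96% of all promoter intervals had.

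Between the KO Firre line and the KO control 8 of the 53 (15.09%) had an unadjusted p under 0.05, where 9.671% of promoter intervals had. In the KO Firre line 2 of the 53 were higher than in the KO control, where 116 of 22024 promoter intervals were called in either direction. They were Pmaip1, which encodes the BH3-only protein Noxa, and Trp53bp1, the gene of the DNA break protein 53BP1. Pmaip1 had 19.99 ± 2.12 CPM in the KO Firre line and 15.8 ± 1.34 CPM in the KO control (log2 difference 0.34 ± 0.09; edgeR adjusted p = 0.0325). Without 1 library that call ended in 7 of 23 fits, those without the KO Firre line at 0, 60, 120 or 150 min or the KO control at 0, 60 or 120 min. Trp53bp1 had 9.57 ± 0.89 CPM in the KO Firre line and 6.44 ± 1.062 CPM in the KO control (0.56 ± 0.12; edgeR adjusted p = 0.00288), a call kept without any 1 of the 23 libraries and in all 11 other settings.

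For the difference between the transgenic contrasts 11 of the 53 (20.75%) had an unadjusted p under 0.05, where 12.75% of promoter intervals had. Trp53bp1 was also the only interval of the 53 called for that difference, where 71 of 22024 promoter intervals were. It had 7.32 ± 0.39 CPM in the WT Firre line and 8.18 ± 1.15 CPM in the WT control, and the difference was 0.73 ± 0.17 (edgeR adjusted p = 0.0234). That call ended in 8 of 23 fits without 1 library, those without the KO Firre line at 120 min, the KO control at 0 or 120 min, the WT Firre line at 120 or 150 min, or the WT control at 0, 30 or 150 min. In the wild type contrast 0 of the 53 passed by edgeR, DESeq2 and limma-voom, where 13 of 22024 promoter intervals passed by edgeR, and 5 had an unadjusted p under 0.05, where 12.57% of promoter intervals had. For the mean Firre response and the time course edgeR, DESeq2 and limma-voom called 0 of the 53, and edgeR called 0 of all promoter intervals. At an unadjusted p under 0.05 there were 0 for the mean response, where 2.674% of promoter intervals had one, and 3 for the time course, where 3.841% had one. Apaf1 was the only one called for the shared slope, at 0.14 ± 0.03 per hour (edgeR adjusted p = 0.0307; ended in 11 of 23 fits without 1 library), where 244 of 22024 promoter intervals were called. For that slope 17 of the 53 (32.08%) had an unadjusted p under 0.05, where 19.34% of promoter intervals had.

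The promoters whose log2 CPM was most like that of Trp53 over the 23 libraries were Fzd2 (Pearson r = 0.932), Top3a (0.928) and Igf2bp1 (0.928), out of 22023 other promoter intervals. All lie on chromosome 11, as Trp53 does. For Cdkn1a they were Gm44863 (0.747), Gm22027 (0.726) and Tmco4 (0.718). These are descriptions over libraries that share 4 lines, depth and promoter share, and genes at the top of so many comparisons are selected for a high value.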

How the data were processed

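Per the submitters' processing notes, the authors used featureCounts, MACS2 2.2.7.1 and the mm10 build. For the aligner, duplicates and any shift of transposase cuts, the entry is not given in the sources used here. The deposited table holds raw counts per consensus peak, without normalization, for 23 libraries (4 lines), and the authors annotated each peak with its nearest gene and distance to the TSS. Reads without molecular identifiers are not independent molecules. At the median total of 7664147 counts, 3 counts are 0.391 CPM, a floor that covers counting error only.

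Counts were scaled by TMM and tested with edgeR 4.0.16 (R 4.3.3; robust quasi-likelihood F test, filterByExpr with a minimum of 10) over 129515 intervals, with Benjamini-Hochberg adjustment and calls at 0.05. Line contrasts used line and time as factors (14 residual df), time tests line, time and transgene by time (9 df), and the slope line and hours (18 df). Standard errors were derived from F, and intervals of 95% are approximate. The fits were tested on simulated data. Alternatives used RLE, total-count and loess (span 0.3) scaling, no filter or a minimum of 30, DESeq2 1.42.0, limma-voom (limma 3.58.1), the promoter share as a covariate, fewer libraries or times, no time term, and promoters within 3000 bp.

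Members and gene lists were chosen with earlier results of these data known. Intervals named were the promoter, the highest distal and every called interval of each gene, called intervals of the wider list, and the 3 promoters most like Trp53 and Cdkn1a; other intervals were named after their values were seen.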

Additional observations from a re-analysis of the deposited data

Results flagged for a closer look

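The WT Firre library of 150 min stood far from the other 4 libraries of its line at 2 promoters. At Mdm2 it had 47.3 CPM, against 36.8 to 38.7 CPM in the others. At Trp53inp1 it had 38.5 CPM, against 29.0 to 31.2 CPM. Of 52 groups of libraries examined at the promoters and called intervals, 2 had such a library, and chance gives about 1 in 20. This library also had the highest promoter share, 44.3%, whose part in these values was not tested.

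Trp53bp1 differed between the transgenic contrasts, with a log2 difference on the knockout background 0.73 above that on the wild type background (edgeR adjusted p = 0.0234). That call was kept in 15 of 23 fits without 1 library and in 7 of 10 other settings compared. The KO Firre line had 9.57 ± 0.89 CPM and the KO control 6.44 ± 1.062 CPM, and the WT Firre line had 7.32 ± 0.39 CPM and the WT control 8.18 ± 1.15 CPM.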

How the results depend on the processing

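Of 5675 single differences compared under other settings, 5514 kept their direction and their side of the threshold, 134 lost a call, 17 gained one and 10 called differences changed sign; 262 uncalled ones changed sign. Of 536 counts of calls, 84 moved by over 1.5 times. For the 10 genes, the 1 call between the KO Firre line and the KO control became 0 with RLE, no filter, DESeq2, limma-voom, without 0 min or without a time term (0 to 1 without 1 library). The 4 calls between the KO control and the WT control became 0 with the promoter-share covariate and 1 without the KO control at 30 and 90 min (3 to 5 without 1 library). With loess scaling the Trp53 promoter was the 1 interval called between the WT lines (-0.216) and the 1 called for the difference of transgenic contrasts (0.292), and DESeq2 called 1 for the slope, the Sesn2 promoter (0 to 3 without 1 library, 3 without the KO control at 150 min). The cause was not tested.

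For the wider list, the 2 calls between the KO Firre line and the KO control became 6 with loess, 4 with the covariate and 1 with no filter, DESeq2, limma-voom or without 0 min (1 to 3 without 1 library). The 14 between the KO control and the WT control became 4 with loess, 0 with the covariate and 2 without the KO control at 30 and 90 min (9 to 21 without 1 library, 9 without the KO control at 90 min). The 1 call for the difference of contrasts became 2 with total counts, loess or a minimum of 30, and 0 with DESeq2, the covariate, without 30 and 90 min or without 0 min (0 to 2). The 1 slope call became 0 with loess or the covariate, 2 with a minimum of 30, 7 with DESeq2 and 5 without 30 and 90 min (0 to 10, 10 without the KO control at 150 min).

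With the covariate the KO control contrast changed sign at the interval named Cep57l1 (-0.093), Sesn1 (-0.035), E2f7 (-0.062), Fdxr (-0.034), Ddb2 (-0.03), Bcl2l1 (-0.122), Cdkn2a (-0.02) and Atm (-0.027), and with loess at Trp53 (-0.093) and Bcl2l1 (-0.008). DESeq2 gave no adjusted p for 31 named differences. With 1 library per line and time, small intervals such as the distal Zmat3 one rest on few counts.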
